A study of Mus musculus with 12 samples.

Results

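Tnf, Il6, Nos2, Il12b, Il10, Osm, Lif and Tnfsf9 are effector genes that activated microglia, the resident macrophages of the brain, can switch on. They are described here across 4 groups of cultured mouse microglia. For each gene the array features (probe sets) that carry its symbol and no other were taken, and the brightest by mean over 12 arrays was to stand for the gene. Each of the 8 genes had 1 such probe set, so all 8 were measured, out of 19938 genes with a single-symbol probe set. Of the 8, 6 were bright enough to be tested among 15273 genes, and Il6 and Il10 were not.

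The series measured RNA from primary mouse microglia on 12 Affymetrix Mouse Gene 1.0 ST arrays, in 4 groups of 3 arrays numbered 1 to 3. Wild-type cells and cells labelled TLR4 knockout were kept for 24 h either in ischemic conditions (low oxygen or low glucose) or in control conditions. All cells of all groups then had 24 h of normal conditions, called reperfusion, so each array shows cells after recovery and none shows cells during the exposure. The wild-type ischemia arrays carry a conflicting source label that reads as control, and the extraction protocol speaks of myocytes; the titles and the series key were followed. The signal of Tlr4 was 8.74 ± 0.18 (SD, n = 6) on the log2 scale in wild-type arrays and 8.71 ± 0.22 (SD, n = 6) in knockout-labelled arrays, so the labels were not borne out by it, and the labels do not say which part of the gene is altered. The term knockout-labelled is used throughout for that reason. The labels give neither strain, age, promoter nor number of cultures or animals behind a group, so the p-values speak of the spread among these arrays and no more, and that spread may be technical.

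Tnf encodes tumour necrosis factor, a cytokine that microglia release early when receptors such as TLR4 signal through the transcription factor NF-kappaB. Il6, Osm and Lif encode cytokines that signal through the shared receptor chain gp130, Il12b encodes the p40 chain of interleukins 12 and 23, and Il10 encodes a cytokine that restrains macrophage activation. Nos2 encodes the inducible nitric oxide synthase, and Tnfsf9 encodes 4-1BB ligand, a membrane protein of the tumour necrosis factor family. Messages of such cytokines are short-lived, and proteins that destroy them or block NF-kappaB keep them brief.

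Array medians ran from 6.30 to 6.40. Knockout-labelled control array 3 stood apart, with a median correlation of 0.976 with the others against 0.982 or more for the rest. Same-numbered control and ischemia arrays of a genotype deviated together (correlations of 0.32 to 0.73), so changes with ischemia are given pair by pair as well. Passing the limit for dim genes did not single out a cell type. Of the markers measured, 8 of 8 for oligodendrocytes, 6 of 8 for astrocytes and 3 of 8 for lymphocytes passed. Of 7 endothelial markers 4 passed, Vwf with a mean of 9.70. Of 12 microglia and macrophage markers, 11 were measured and all 11 passed, with means of 12.3 for Csf1r, 6.51 for Tmem119 and 5.75 for P2ry12. Their mean signal was highest in both wild-type arrays numbered 2, at 10.55 in control and 10.51 after ischemia, with 9.75 to 10.13 in the remaining wild-type arrays and 9.79 to 9.98 in the knockout-labelled arrays. The mean of 18 interferon-stimulated genes was also highest in these arrays of their conditions (9.18 and 10.33), with 7.00 to 8.84 in the other wild-type arrays and 6.35 to 6.72 in the knockout-labelled arrays.

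Of the 8 effectors, Tnf was the one with a bright probe set. Its mean over 12 arrays was 9.54 log2 RMA units (RMA is the authors' background correction, normalization and probe summary), above the mean of 88.6% of all probe sets. The next, Osm, had a mean of 6.48, above 52.2% of probe sets. Il12b (5.92), Nos2 (5.85), Tnfsf9 (5.66) and Lif (5.41) lay above 41.4%, 39.9%, 36.0% and 31.1% of probe sets. Since probe sets differ in how strongly they bind, these percentages place each signal among all signals and do not rank the RNA levels of the genes. The limit for dim genes was 5.36 log2, the 30th percentile of probe set means. Il10, with a mean of 3.97, and Il6, with a mean of 3.29, lay below it on all 12 arrays. Lif passed by only 0.055 and was above the limit on 8 of 12 arrays, and Tnfsf9 was above it on 10 of 12, so the small changes of both rest on dim signals. Nos2 and Il12b passed by 0.49 and 0.56. Lymphocyte and neuron markers, of which 3 of 8 and 5 of 10 passed, reached 6.60 (Cd3e) and 6.67 (Gad1), above Osm. Whether Nos2, Il12b and Osm stand above background signal was not tested.

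**Figure D1:**
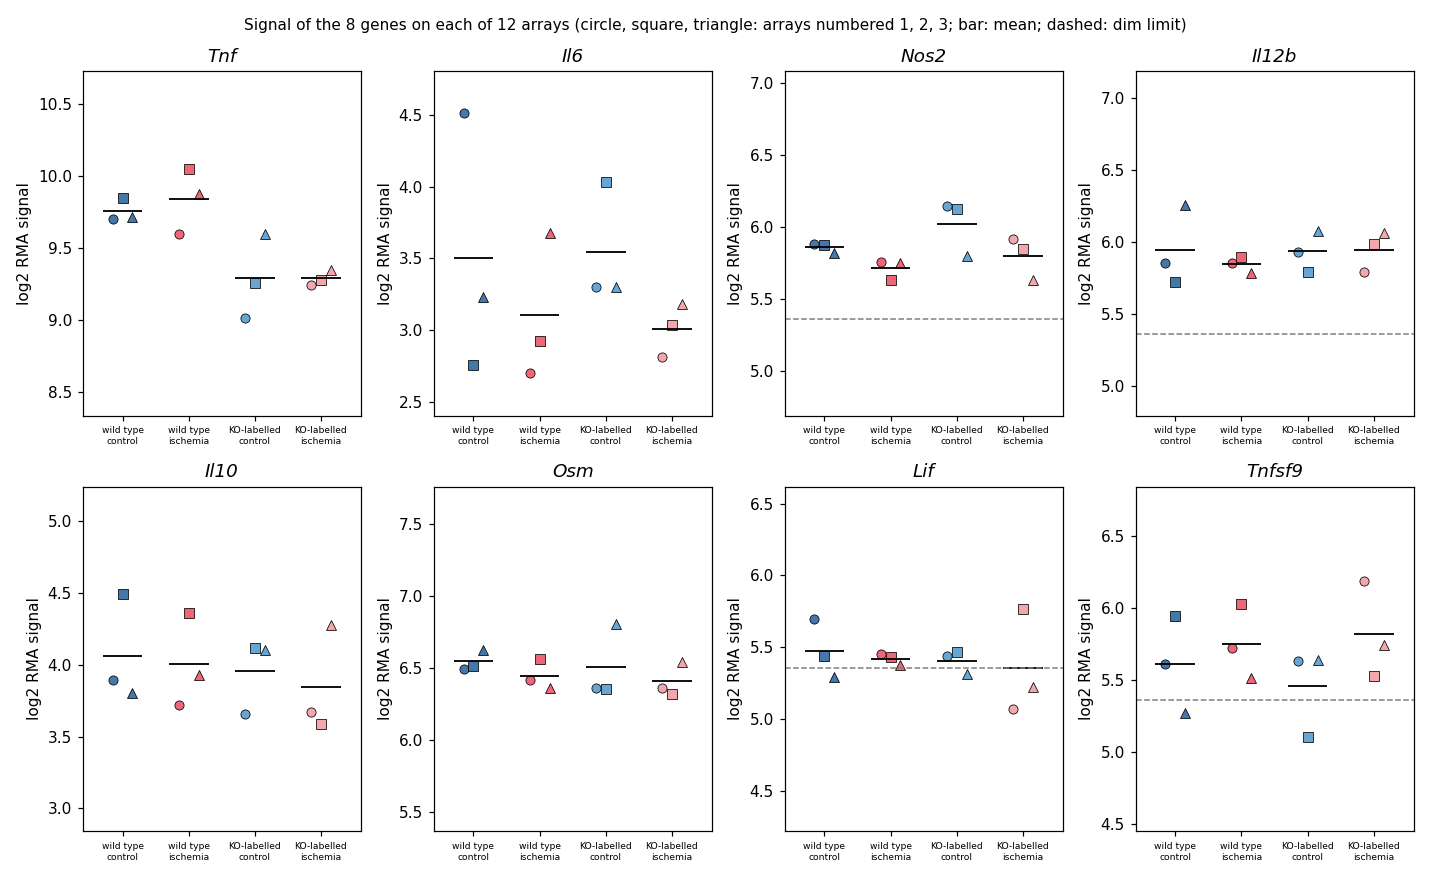
Log2 RMA signal of the 8 genes (vertical axes, 1 panel a gene) in 4 groups of 3 arrays (horizontal axis), with a bar at each group mean and a dashed line at the limit for dim genes where it falls within the panel. The 3 wild-type points of Tnf lie above the knockout-labelled points in both conditions, while the groups of the other genes mostly overlap; Il6 and Il10 lie wholly below the limit.

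None of the 6 tested effectors was called in any of 5 comparisons at an adjusted p under 0.05 in limma, a linear model fitted over all 12 arrays and all 15273 genes. In wild-type cells 0 of 6 changed with ischemia, where 0.0131% of all genes were called without a replicate block and 3.73% with the same-numbered pairs as a block. In knockout-labelled cells 0 of 6 changed with ischemia, where 0% of all genes were called without the block (1334 had an unadjusted p under 0.05) and 0.648% with it. Between genotypes 0 of 6 differed in control cells, where 0.0589% of genes were called and 0.0917% with same-numbered arrays of a genotype as a random block, and 0 of 6 after ischemia, where 0.714% and 0.989% were called. The number of arrays limits the precision, and these counts of 0 among 6 lie near those background shares. At an unadjusted p under 0.05 without a block only Tnf passed, and only between genotypes. Of all genes, 7.14% passed there in control cells and 8.35% after ischemia. In the fits with a block Nos2 and Tnfsf9 also passed, after ischemia in knockout-labelled cells, where 19.2% of all genes passed.

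The medians over the 6 genes were small in each comparison. Ischemia in wild-type cells gave a median change of -0.08 with 2 of 6 above zero, against a median of 0.01 over all genes, of which 52.4% were above zero. In knockout-labelled cells the median was -0.03 with 2 of 6 above zero, against 49.8% of all genes. Between genotypes 1 of 6 was above zero in control cells (median -0.05) and 3 of 6 after ischemia (median 0.01), against 50.8% and 52.7% of all genes. The 6 genes thus did not lean together in either direction by more than these small values.

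**Figure D2:**
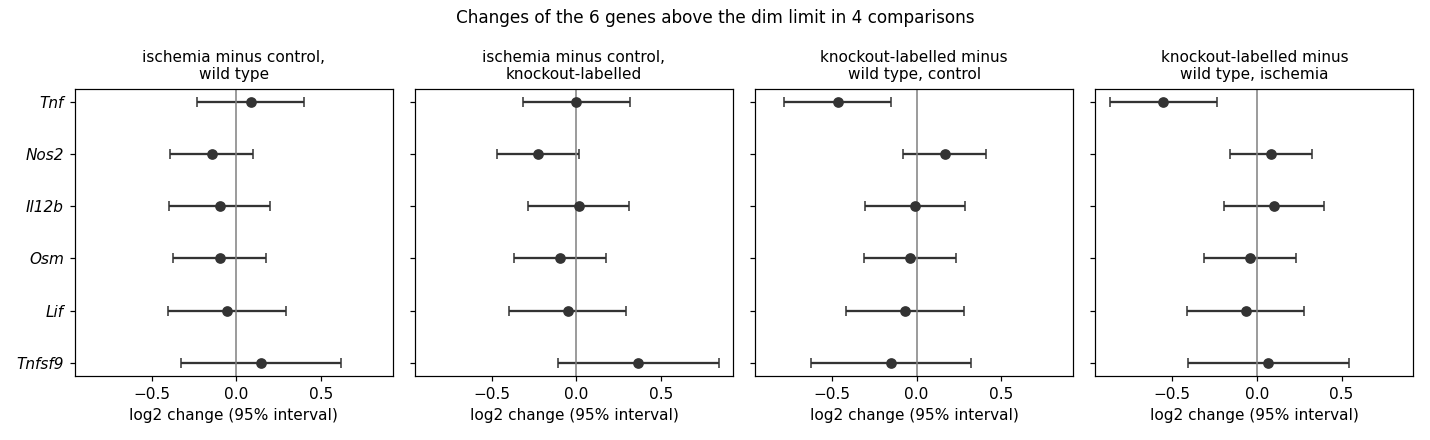
Log2 change (horizontal axis) of the 6 tested genes (vertical axis) in 4 comparisons, as points with 95% intervals from limma without a replicate block. Of the intervals, only those of Tnf between genotypes lie wholly on one side of 0, from -0.78 to -0.15 in control cells and from -0.87 to -0.24 after ischemia.

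Tnf was lower in the knockout-labelled arrays in both conditions, by a size that did not pass the adjustment over all genes. Its signal was 9.70, 9.85 and 9.72 in wild-type control arrays 1, 2 and 3, and 9.02, 9.26 and 9.59 in knockout-labelled control arrays. After ischemia it was 9.59, 10.05 and 9.88 in wild-type arrays and 9.24, 9.27 and 9.35 in knockout-labelled arrays. Every wild-type array was above every knockout-labelled array, although the lowest of the 6 wild-type arrays (ischemia array 1) exceeded the highest of the 6 knockout-labelled arrays (control array 3) by only 0.0009. Groups that do not overlap are common here: 9.89% of all genes in control cells, 16.5% after ischemia and 1.5% for 6 against 6 arrays. In bulk RNA, fewer cells of a type and less RNA per cell cannot be told apart.

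The genotype difference of Tnf was -0.47 in control cells, 1.38-fold lower (SE 0.15, n = 3 a group; limma adjusted p = 0.596). After ischemia it was -0.55, 1.47-fold lower (SE 0.15, n = 3 a group; limma adjusted p = 0.155). Without knockout-labelled control array 3, which stands apart, the control difference was -0.62 (limma adjusted p = 0.405). With same-numbered arrays of a genotype as a random block the limma adjusted p was 0.512 and 0.120. Over 16 alternative settings after ischemia the limma adjusted p ran from 0.0518 to 0.569 and the difference from -0.68 to -0.45. The 2 differences were of like size, and the change between them, -0.09 with a 95% interval of -0.53 to 0.36, was not detectable.

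Averaging both genotype differences, a contrast added after the values were seen, gave -0.51 for Tnf (SE 0.10, limma adjusted p = 0.0294), where 1.36% of all genes were called. That fit takes control and ischemia arrays of one number as independent. With the random block, which does not, the call was lost (SE 0.12, limma adjusted p = 0.0696; 0.949% of genes called). It was also lost in the fit without the block for 9 of 12 single arrays left out, namely wild-type control arrays 1, 2 and 3, wild-type ischemia array 3, knockout-labelled control arrays 1 and 2 and knockout-labelled ischemia arrays 1, 2 and 3, with adjusted p from 0.0120 to 0.0945 over the 12. With the mean of each same-numbered pair as 1 value, Tnf was 9.65, 9.95 and 9.80 in wild-type cells and 9.13, 9.27 and 9.47 in knockout-labelled cells. These 3 and 3 values could not overlap, since every wild-type array was above every knockout-labelled array. Of all genes, 1.5% did not overlap for 6 against 6 arrays. A two-sided exact permutation test gave p = 0.1, the smallest this design allows. That outcome was fixed by the same order of the arrays and adds no support.

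Within each condition Tnf was highest in the wild-type array numbered 2, and these arrays also had the highest microglial marker and interferon means of their condition. Across conditions the order differed, since wild-type ischemia array 3 (9.88) was above wild-type control array 2 (9.85). The microglial marker mean ranged from 9.75 to 10.55 in wild-type control, 9.90 to 10.51 in wild-type ischemia, 9.95 to 9.98 in knockout-labelled control and 9.79 to 9.88 in knockout-labelled ischemia arrays. Without both wild-type arrays numbered 2, a setting added after the values were seen, the genotype difference of Tnf was -0.42 in control cells and -0.45 after ischemia (limma adjusted p = 0.331 and 0.268), and the average was -0.43 (adjusted p = 0.0493, or 0.0961 with the random block). The part of the marker and interferon levels in the Tnf difference was otherwise not tested.

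Ischemia left no detectable mark on Tnf at this time. The pair changes were -0.11, 0.20 and 0.16 in wild-type cells, with a mean of 0.09 (95% interval -0.23 to 0.40; limma adjusted p = 0.802). In knockout-labelled cells they were 0.23, 0.02 and -0.25, with a mean of -0.001 (95% interval -0.32 to 0.31; limma adjusted p = 0.999). The pairs of each genotype thus disagreed in sign.

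Over the 12 arrays, the tested genes whose signal followed Tnf most closely were H2-Q5 (Pearson r = 0.949), Ebi3 (r = 0.943) and Sfxn5 (r = 0.916). These values are a description, since arrays share a genotype and same-numbered arrays of a genotype deviated together. H2-Q5 belongs to the MHC class I family, whose near-identical members can share probes, so its signal is uncertain. Ebi3 encodes the chain that pairs with p28 in interleukin 27 and belongs to the list of partner chains described further on. Its signal was 8.39, 9.19 and 8.63 in wild-type control, 8.78, 9.14 and 9.10 in wild-type ischemia, 7.65, 8.14 and 8.47 in knockout-labelled control and 7.74, 7.82 and 8.03 in knockout-labelled ischemia arrays. Knockout-labelled control array 3, the array that stands apart, was the highest of the knockout-labelled arrays for both Tnf and Ebi3.

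**Figure D3:**
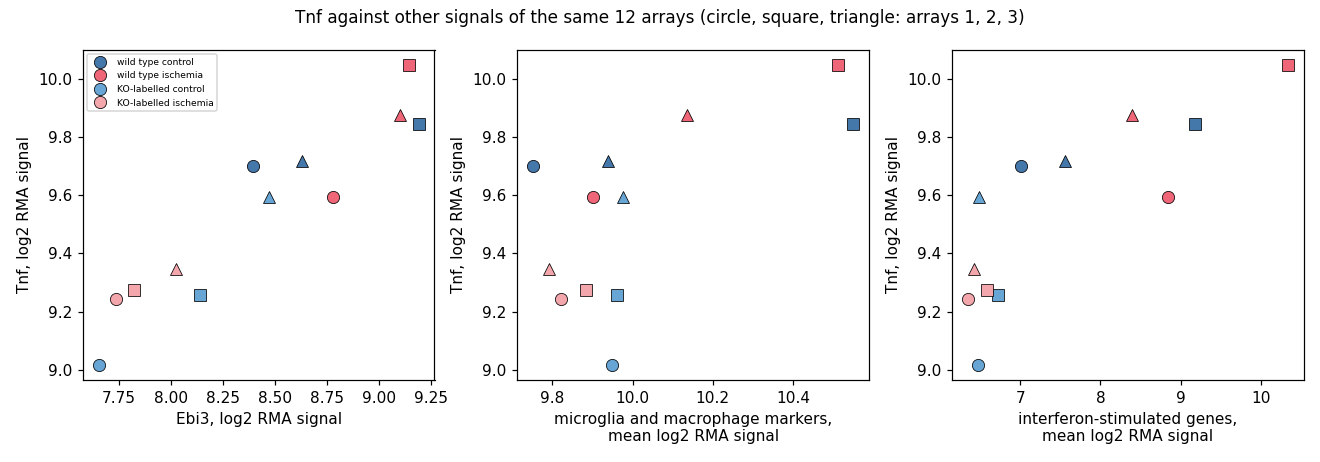
Tnf signal (vertical axes, log2 RMA) of the 12 arrays against the signal of Ebi3, the mean of 11 microglia and macrophage markers and the mean of 18 interferon-stimulated genes (horizontal axes, log2 RMA); colours give the groups and shapes the array numbers. Tnf and Ebi3 are both lowest in knockout-labelled control array 1 (Tnf 9.02, Ebi3 7.65). Tnf peaks at 10.05 in wild-type ischemia array 2 while Ebi3 peaks at 9.19 in wild-type control array 2. Among the knockout-labelled arrays Tnf runs from 9.02 to 9.59, the marker mean from 9.79 to 9.98 and the interferon mean from 6.35 to 6.72.

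The promoters of Tnf and Ebi3 are shown because these genes had the most similar signals among those with a known tie to the 8 effectors. Each line gives 250 bases before to 50 after the transcription start from RefSeq (GRCm38.p6), 5′ to 3′ on the gene's own strand, with motif matches in capitals. Tnf lies at chr17:35201958-35202257 on the minus strand, and Ebi3 at chr17:55952373-55952672 on the plus strand.
Tnf: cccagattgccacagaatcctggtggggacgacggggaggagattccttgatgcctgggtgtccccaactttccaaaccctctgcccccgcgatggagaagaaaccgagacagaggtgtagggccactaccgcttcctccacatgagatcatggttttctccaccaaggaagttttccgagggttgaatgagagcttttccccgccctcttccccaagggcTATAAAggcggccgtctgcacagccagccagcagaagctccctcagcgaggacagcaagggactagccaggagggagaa
Ebi3: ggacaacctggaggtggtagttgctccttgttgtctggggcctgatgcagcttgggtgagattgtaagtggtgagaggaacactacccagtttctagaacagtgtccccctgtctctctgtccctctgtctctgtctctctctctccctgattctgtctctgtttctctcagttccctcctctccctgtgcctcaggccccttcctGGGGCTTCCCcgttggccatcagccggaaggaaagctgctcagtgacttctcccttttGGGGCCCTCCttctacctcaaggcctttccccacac

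Both strands of each window were searched for the kappaB consensus, AP-1 (TGANTCA), C/EBP (TTGCNNAA), the core of the interferon-stimulated response element (GAAANNGAA) and the TATA box (TATAAA). The Tnf window held a TATA box starting at base -29, which 13.6% of 32851 promoter windows hold, and no other match. The Ebi3 window held a kappaB consensus at base -44 and another at base 15 after the start, and 8.46% of windows hold at least 1. Windows existed for 4 of the 8 effectors. Of the other 3, Il6 held the kappaB consensus (at -44), AP-1 (at -249, in 7.81% of windows) and C/EBP (at -128, in 10.8%), Lif held the kappaB consensus (at -178) and AP-1 (at -228), and Il12b held none of these letters. The response element core, in 8.56% of windows, was in none of the 4. A match is a description of letters, not a bound site. Sites outside the window or spelled with other letters were not searched for, so a window without a match says nothing of them.

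Il12b had a signal above that of 41.4% of all probe sets, only 0.56 above the limit for dim genes, and showed no detectable change. It read 5.85, 5.72 and 6.26 in wild-type control, 5.86, 5.89 and 5.79 in wild-type ischemia, 5.93, 5.79 and 6.08 in knockout-labelled control and 5.79, 5.99 and 6.06 in knockout-labelled ischemia arrays. All groups overlapped. The change with ischemia was -0.10 in wild-type cells (95% interval -0.39 to 0.20) and 0.01 in knockout-labelled cells (95% interval -0.28 to 0.31). At a signal this low a change of RNA need not show, so the intervals bound the array signal and not the RNA.

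Osm, oncostatin M, had the narrowest spread of the 8, 0.48 over the 12 arrays. It read 6.50, 6.51 and 6.63 in wild-type control, 6.41, 6.56 and 6.36 in wild-type ischemia, 6.36, 6.35 and 6.80 in knockout-labelled control and 6.36, 6.32 and 6.54 in knockout-labelled ischemia arrays. Knockout-labelled control array 3 was the highest and the groups overlapped. The ischemia change was -0.10 in both genotypes (95% interval -0.37 to 0.17 in each), and it was below zero in 5 of 6 pairs. Without that array the knockout-labelled change was 0.05.

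Lif, leukemia inhibitory factor, hovered around the limit for dim genes. It read 5.70, 5.44 and 5.29 in wild-type control, 5.46, 5.43 and 5.38 in wild-type ischemia, 5.44, 5.47 and 5.32 in knockout-labelled control and 5.07, 5.77 and 5.23 in knockout-labelled ischemia arrays. The widest group, knockout-labelled ischemia, held both its lowest and its highest array. Each of its 4 group differences was between -0.07 and -0.05.

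Il6 and Il10 were too dim to be tested with the others, and their values stand as descriptions. Il6 read 4.51, 2.76 and 3.23 in wild-type control, 2.70, 2.93 and 3.68 in wild-type ischemia, 3.30, 4.03 and 3.30 in knockout-labelled control and 2.81, 3.04 and 3.18 in knockout-labelled ischemia arrays. In knockout-labelled cells the control and ischemia groups did not overlap, with ischemia lower by 0.49, 0.99 and 0.12 in the pairs, and 14.3% of tested genes do not overlap there. Fitted with no filter on dim genes, that change was -0.53 (95% interval -1.34 to 0.28, limma adjusted p = 0.653). Il10 read 3.89, 4.49 and 3.80 in wild-type control, 3.72, 4.36 and 3.93 in wild-type ischemia, 3.66, 4.11 and 4.11 in knockout-labelled control and 3.67, 3.59 and 4.28 in knockout-labelled ischemia arrays, with all groups overlapping. At such signals a change of RNA cannot be seen reliably, and no level of either message can be read from these arrays.

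Nos2 was lower after ischemia in each of the 6 same-numbered pairs, by small amounts that did not pass the adjustment. Its mean signal lay only 0.49 above the limit for dim genes. Its signal was 5.88, 5.87 and 5.82 in wild-type control and 5.76, 5.63 and 5.75 in wild-type ischemia arrays. In knockout-labelled cells it was 6.14, 6.13 and 5.80 in control and 5.92, 5.85 and 5.63 after ischemia. The wild-type groups did not overlap, as for 21.7% of all genes, and the knockout-labelled groups did.

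The pair changes of Nos2 were -0.12, -0.24 and -0.07 in wild-type cells, with a mean of -0.15 (SE 0.11, limma adjusted p = 0.534). They were -0.23, -0.28 and -0.17 in knockout-labelled cells, with a mean of -0.23 (SE 0.11, limma adjusted p = 0.574; 0.206 with the replicate block). Of all tested genes, 6.36% were lower in all 6 pairs. The average over both genotypes, added after the values were seen, was -0.19, with a limma adjusted p of 0.211 without the block and 0.0722 with it, and it ran from -0.24 to -0.14 when single arrays were left out of the fit without the block. Between genotypes Nos2 was 0.17 higher in knockout-labelled control cells (95% interval -0.08 to 0.41) and 0.09 higher after ischemia (95% interval -0.16 to 0.33).

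Tnfsf9 went the other way and was higher after ischemia in all 6 pairs. It read 5.61, 5.95 and 5.27 in wild-type control and 5.72, 6.03 and 5.51 in wild-type ischemia arrays. In knockout-labelled cells it read 5.64, 5.10 and 5.64 in control and 6.19, 5.53 and 5.74 after ischemia. The arrays of a group differed from one another by more than the pair changes in wild-type cells, so the groups overlapped.

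The pair changes of Tnfsf9 were 0.11, 0.08 and 0.24 in wild-type cells (mean 0.15, limma adjusted p = 0.776) and 0.56, 0.43 and 0.11 in knockout-labelled cells (mean 0.37, 1.29-fold, limma adjusted p = 0.600, or 0.106 with the replicate block). Of all tested genes 10.7% were higher in all 6 pairs. The average over both genotypes was 0.26 and passed in limma only with the block (block SE 0.074, adjusted p = 0.0403; adjusted p = 0.338 without it). With the block 12.5% of all genes passed that averaged contrast, and 0.00655% without it. Leaving out 1 array ended the call for 10 of 12 arrays, with adjusted p from 0.0325 to 0.133, and leaving out both wild-type arrays numbered 2 gave 0.0660. The difference of the 2 ischemia effects, 0.22, was not detectable (95% interval -0.45 to 0.89).

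**Figure D4:**
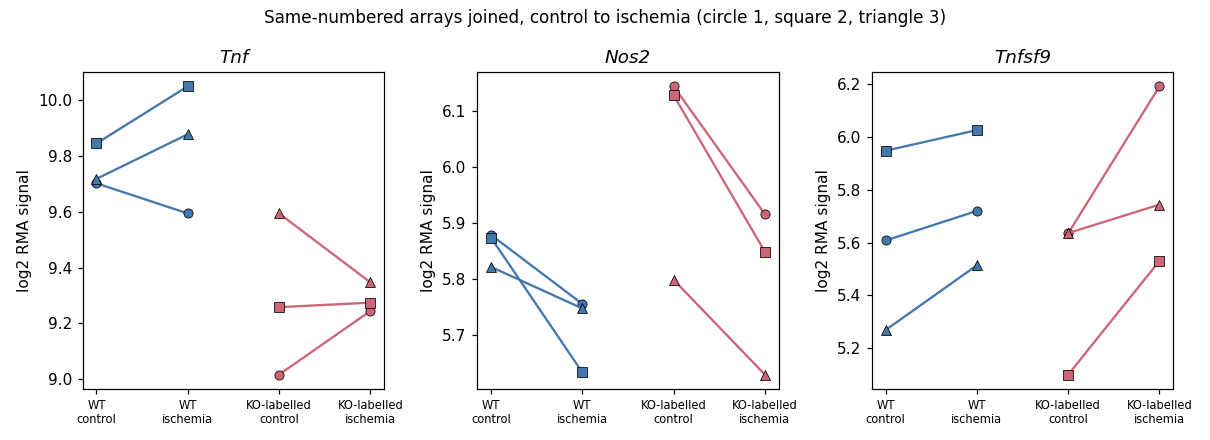
Log2 RMA signal (vertical axes) of Tnf, Nos2 and Tnfsf9 in control and ischemia arrays, with lines joining arrays of one number within a genotype; WT is wild type. The 6 lines of Nos2 go down, by -0.07 to -0.28, the 6 lines of Tnfsf9 go up, by 0.08 to 0.56, and those of Tnf go both ways.

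The difference between the ischemia effects of the 2 genotypes was called for 0 of 6 effectors, where 0% of all genes were called without the block (443 had an unadjusted p under 0.05) and 0.308% with it. The differences ran from -0.09 for Tnf to 0.22 for Tnfsf9. For Il12b the value was 0.11, for Nos2 -0.08, and for Osm and Lif it was under 0.01 in size.

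The other tested genes nearest to each effector over the 12 arrays, by Pearson r as above, were a mixed set. For Nos2 they were Adgrd2-ps (0.933), Mesp1 (0.922) and Kcnh2 (0.920), and for Tnfsf9 Rpgrip1l (0.899), Cct5 (0.884) and Gss (0.880). Il12b was nearest to Dhh (0.880), Osm to Cep131 (0.882) and Lif to Olfr713 (0.825). Among the 6 effectors themselves, r lay between -0.64 (Tnf and Nos2) and 0.57 (Il12b and Osm), and no effector was among the nearest genes of another.

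The genes around these effectors were taken from lists by role. Among 10 tested receptor genes (of 11, Osmr being too dim), 1 was called between genotypes after ischemia, where 0.714% of all genes were called. Il10ra, the chain of the interleukin 10 receptor that binds the cytokine, was 9.06 ± 0.09 (SD, n = 3) in wild-type and 8.23 ± 0.19 (SD, n = 3) in knockout-labelled ischemia arrays, and fell by 0.84 (SE 0.13, limma adjusted p = 0.0132). That call was lost without knockout-labelled ischemia array 1 or 3, with adjusted p up to 0.0991. Il12rb2, a receptor chain for interleukin 12, rose by 0.53 with ischemia in wild-type cells in the fit with the block only (limma adjusted p = 0.0219, or 0.271 without it). Of all genes, 3.73% were called there with the block. The median genotype change of the receptors after ischemia was -0.24, against 0.01 over all genes.

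Of 8 partner chains and processing genes, all tested, 1 was called: Ebi3 was lower in knockout-labelled cells after ischemia by a change of -1.15 (SE 0.22, limma adjusted p = 0.0328). Of all genes, 0.714% were called there. Ebi3 lost the call without any single array of the 2 groups (limma adjusted p 0.0594 to 0.192). Adam17, the protease that sheds tumour necrosis factor from the cell surface, had a genotype difference of -0.46 in control cells and -0.29 after ischemia and was not called (limma adjusted p = 0.570 and 0.582). The list median after ischemia was -0.02. Among 10 enzymes of nitric oxide and arginine metabolism (of 11, Ass1 having no single-symbol probe set), none was called without the block. With the block Arg1, the arginase that competes with nitric oxide synthase for arginine, rose by 0.67 in wild-type cells after ischemia (limma adjusted p = 0.00487), and Pts, which makes a precursor of the synthase cofactor tetrahydrobiopterin, rose by 0.55 (adjusted p = 0.0350). In that comparison 3.73% of all genes were called with the block, and Nos2 itself changed by -0.15 without a call. The list median there was 0.15, against 0.01 over all genes.

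Among 18 tested upstream transcription factors, Irf1 was called. It rose by 0.61 in wild-type cells after ischemia with the block (limma adjusted p = 0.00504; 0.242 without it) and was lower in knockout-labelled cells after ischemia, by a change of -0.69 (SE 0.13, adjusted p = 0.0322). The genotype call was lost in 8 of 16 alternatives, with an adjusted p of 0.309 for a change of -0.35 when all probe sets of a gene were averaged, 0.113 with only those 2 groups fitted and 0.0517 without both wild-type arrays numbered 2. Cebpd was -0.50 in that comparison and was not called (limma adjusted p = 0.215). The list median was -0.21, with 4 of 18 above zero, against 0.01 and 52.7% over all genes. Of all genes, 0.714% were called there, and 3.73% with ischemia in wild-type cells in the fit with the block.

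Of 18 genes that brake cytokine messages or NF-kappaB, all tested, 2 were lower in knockout-labelled cells after ischemia, and 13 had a change below zero. Of all genes, 0.714% were called in that comparison and 52.7% had a change above zero. Nfkbia, whose protein holds NF-kappaB in the cytoplasm and whose gene NF-kappaB itself switches on, read 9.55, 9.79 and 9.93 in wild-type and 8.95, 9.08 and 8.97 in knockout-labelled ischemia arrays and fell by 0.76 (SE 0.13, limma adjusted p = 0.0179). Bcl3, an atypical member of the same inhibitor family, fell by 0.67 (SE 0.12, limma adjusted p = 0.0231). Of the 6 arrays compared, Nfkbia kept its call when wild-type ischemia array 1 was left out and lost it without any other, and Bcl3 lost it without any single array (adjusted p up to 0.122 and 0.133). The list median was -0.30, against 0.01 over all genes.

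Of 29 other inflammatory effectors 24 were tested (Csf2, Ifnb1, Tnfsf10 and Tnfsf4 were too dim and Spp1 had no single-symbol probe set). Of the 24, 3 were lower in knockout-labelled cells after ischemia and 1 in control cells, or 2 in control cells with the random block. Of all genes, 0.714% were called after ischemia and 0.0589% in control cells, or 0.0917% with that block. The list medians were -0.27 and -0.18. Ccl5, a chemokine, was 11.52 ± 0.81 (SD, n = 3) in wild-type and 7.01 ± 0.32 (SD, n = 3) in knockout-labelled ischemia arrays, a change of -4.51 (SE 0.45, limma adjusted p = 0.000615). In control cells its genotype change was -2.58 (SE 0.45, limma adjusted p = 0.1045, or 0.0289 with the random block). Acod1, which makes itaconate, changed by -2.40 after ischemia (SE 0.19, limma adjusted p = 0.000108) and by -1.41 in control cells (SE 0.19, adjusted p = 0.0218). These 2 calls after ischemia held under all 16 alternatives, while the control call of Acod1 was lost without wild-type control array 1 or 3, without any knockout-labelled control array, and with only those 2 groups fitted. Tnfsf15, like Tnfsf9 a ligand of the tumour necrosis factor family, changed by -0.60 after ischemia (SE 0.12, limma adjusted p = 0.0368), where Tnfsf9 read 0.07 higher without a call. That call was lost without both wild-type arrays numbered 2, with only those 2 groups fitted, and without wild-type ischemia array 1 or 2 or any knockout-labelled ischemia array (adjusted p up to 0.168). With the block, 5 of the 24 rose with ischemia in wild-type cells (Ccl5, Acod1, Cd86, Il18 and Csf1), where 3.73% of all genes were called. In knockout-labelled cells 2 rose with it (Csf1 by 0.77 and Cd86 by 0.58, limma adjusted p = 0.0223 and 0.0283), where 0.648% were called. Without the block none of these was called (limma adjusted p from 0.255 to 0.290 in wild-type cells, and 0.560 and 0.571 in knockout-labelled cells).

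Of 18 tested interferon-stimulated genes (of 20), 17 rose with ischemia in wild-type cells in the fit with the block and 0 without it. Of all genes, 3.73% and 0.0131% were called there. After ischemia 11 were lower in knockout-labelled cells, or 15 with the random block, where 0.714% and 0.989% of all genes were called. In control cells 0 were called, but 0 of 18 had a genotype change above zero. The median there was -1.17, and 11 of 18 did not overlap, against 9.89% of all genes. Their median genotype change after ischemia was -2.58, against -0.55 for Tnf and between -0.07 and 0.10 for the other 5 tested effectors. The lists were compared by these counts and medians alone.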

How the data were processed

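Each of 12 arrays measured 1 RNA sample of primary mouse microglia. The deposited table holds log2 signals of probe sets, which per the submitters' processing notes the authors computed by RMA in Affymetrix Expression Console 1.1. Scanner files were not used here. Groups and replicate numbers come from the sample titles. Of 35557 probe sets, 21789 had 1 symbol, 1621 had more than 1 and stayed unnamed, and for 12147 the annotation gave none; Entrez identifiers matched 21698 to current names (GRCm38.p6).

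The brightest probe set stood for a gene, and genes whose mean did not exceed the 30th percentile were dropped. One model with 4 group means used every array (lmFit and eBayes of limma 3.58.1, R 4.3.3), with Benjamini-Hochberg adjustment over 15273 genes and calls at an adjusted p under 0.05. Every adjusted p printed comes from limma; intervals are at 95%.

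Pairing was checked by correlating deviations from group means. Same-numbered arrays correlated at 0.48 to 0.73 in wild-type and 0.32 to 0.49 in knockout-labelled cells, all above 0.1. Between genotypes they correlated at -0.33 to 0.15 and -0.15 to 0.33. Differently numbered control and ischemia arrays correlated at -0.62 to 0.40 in wild-type and -0.44 to 0.22 in knockout-labelled cells. The pairing within a genotype therefore rests on the data, since no label explains the numbers, and so do calls made only with the block. The steps were tested on simulated data.

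The effectors, lists, motifs and rules were chosen with earlier results of these data known. By rule, all 8 effectors were named, list genes were named if called (at most 6 a list, or the 2 with the largest change where fewer than 2 were called), and 3 genes nearest in signal to each tested effector; fewer interferon and nearest genes are printed than the rule gives. Alternatives covered the replicate block, the samples fitted, the dim filter, normalization, probe set averaging, moderation and each array left out; both averaged contrasts and the fit without both wild-type arrays numbered 2 were added after seeing the data.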

Additional observations from a re-analysis of the deposited data

Results flagged for a closer look

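With same-numbered pairs as a block in limma, the ischemia effects of the 2 genotypes differed for 0.308% of all genes. Without the block 0 genes passed this test of the difference itself. Those that passed with the block included 10 of 18 tested interferon-stimulated genes and 1 of 24 tested other inflammatory effectors. For the 7 of these that the rule for named genes takes, the difference, knockout-labelled minus wild type, was -1.93 for Ccl5 (adjusted p = 0.000591), -1.78 for Rsad2, -1.73 for Usp18, -1.75 for Irf7, -2.13 for Ifit2 (adjusted p = 0.00747, the largest of the 7), -1.75 for Mx2 and -2.33 for Ifit1. None of the 6 tested effectors passed. Groups of 3 arrays are small for judging single outlying arrays. The block fit of these 7 differences was not repeated with single arrays left out. Without the block, the 7 differences stayed below zero whichever of the 12 arrays was left out, and none was called.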

How the results depend on the processing

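The count of tested effectors called was 0 in all 5 comparisons and stayed at 0 under every alternative run, including the replicate block within genotype, the block of 3 numbers over all arrays and the random block; the paired fits changed no call of an effector in these comparisons. In the contrasts averaged afterwards, the random block ended the genotype call of Tnf (adjusted p = 0.0696 against 0.0294), and the block within genotype made the ischemia call of Tnfsf9 (0.0403 against 0.338). The count was also 0 without each array in turn (lowest 0, highest 0). The smallest adjusted p of an effector over 626 values under alternatives was 0.0518, for Tnf after ischemia with the block of 3 numbers. Of 40 changes (8 genes, 5 comparisons), 11 kept their sign under every alternative, among them both genotype differences of Tnf and both ischemia changes of Nos2; 77 of the 626 values switched sign, 62 of them with 1 array left out, all for changes that were not called. Of 13 calls of named list genes without the block, 2 held under every alternative and 11 were lost when 1 array or another was left out; the cause was not tested. Quantile normalization and median centring moved the median of all genes by less than 0.1. Without scanner files, background correction could not be varied. Probe sets near the dim limit give only a weak reading of Lif, Tnfsf9, Nos2 and Il12b and none of Il6 and Il10. Osm lay within the range of the lymphocyte and neuron markers.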
